A study of Mus musculus with 6 samples.

Results

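The genes described here guard the step at which pyruvate enters mitochondrial oxidation. They are the pyruvate carrier (Mpc1, Mpc2), the first enzyme of the pyruvate dehydrogenase complex (Pdha1, Pdhb), the kinases that switch that enzyme off (Pdk1, Pdk2, Pdk3, Pdk4) and the phosphatases that switch it back on (Pdp1, Pdp2). The 10 genes were chosen by symbol from a count table of 57010 identifiers, and each symbol matched 1 identifier. RNA sequencing was done on CT26 cells, a mouse colon carcinoma line, in 2 groups of 3 libraries each: sgControl, with a control guide RNA, and sgCdk10, whose guide RNA targets the gene of cyclin-dependent kinase 10. The labels describe both groups as this line alone and name no treatment or time, and whether each line is 1 clone or a pool of edited cells is not given in the sources used here. The title of the study concerns nucleic acid sensors and antitumor immunity; the comparison made here asks how the mRNAs that control pyruvate oxidation differed between the guides.

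Pyruvate made by glycolysis crosses the inner mitochondrial membrane through a carrier built from MPC1 and MPC2. The pyruvate dehydrogenase complex then converts it to acetyl-CoA, the fuel of the tricarboxylic acid (TCA) cycle. Phosphorylation of the alpha subunit, PDHA1, by the PDK kinases stops the enzyme and leaves pyruvate to be reduced to lactate, and the PDP phosphatases reverse this. Pdk1 is a well known target of the hypoxia-inducible factor HIF-1, and Pdk4 of nuclear receptors and FOXO factors in fasting muscle and liver. Pdk1 here is pyruvate dehydrogenase kinase 1, not the signalling kinase PDPK1 that shares the abbreviation. The mRNA counts measure neither protein nor the phosphorylation of PDHA1.

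Library totals ran from 17532202 to 19258309 counts. For Cdk10 itself 381, 344 and 365 counts were found in the sgControl libraries, against 204, 227 and 202 with the Cdk10 guide, so that it changed by -0.82 on the log2 scale (standard error 0.079; edgeR adjusted p = 8.4e-09); its exons overlap Spata2l on the opposite strand over 417 bases and Gm45842 on the same strand over 186 bases. Of 13442 genes tested, 42.5% were called at an adjusted p below 0.05, 22.1% higher and 20.4% lower in sgCdk10, so a call alone does not set a gene apart here. In 51.4% of them the 3 libraries of one guide all lay above the 3 of the other. Among the markers sgControl replicate 3 stood apart in Acta1, skeletal muscle actin, with 693 counts there and 2 to 5 in the other 5 libraries. Of the other listed muscle markers, Myh1, Ckm and Tnnt3 had at most 1 count in a library. Des had 12 to 21 counts in the other libraries and 24 in sgControl replicate 3. Without this library 6056 genes were called, against 5717 with all libraries and 4791 to 5205 with any other library left out. Of 11 colon epithelial markers, Epcam had 0 counts in all 6 libraries and Cdh1 at most 1, while Krt18 and Krt20 had 404 to 705 and 235 to 403 counts and were called higher in sgCdk10. Muc2, at 7 to 16 counts, was called lower and Lgals4, at 11 to 23, was not called. Krt8, Krt19, Cdx1, Cdx2 and Vil1 had at most 12 counts in a library. The summed level of the list was 37.6 to 41.9 CPM (counts scaled to library size by TMM) in sgControl and 59.2 to 60.1 in sgCdk10. Nearly all of it came from Krt18 and Krt20, with means of 23.9 and 13.7 CPM in sgControl and 37.5 and 19.45 in sgCdk10. Of 12 leukocyte markers 4 had 0 counts in every library; their summed level was 9.14 to 9.21 CPM in sgControl and 12.8 to 13.9 in sgCdk10, nearly all of it from Cd68, and the part of either marker list in the results was not tested.

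Pdk1 rose, Pdk3 rose by less, Pdhb and both phosphatases fell, and neither Pdha1 nor the carrier genes were called. Of the 10 genes 9 passed the filter on low counts, of which 2 were called higher, 3 lower and 4 not at all. That is 5 of 9 called, beside 42.5% of all tested genes. The same 5 genes had no overlap between the groups, 2 higher and 3 lower in sgCdk10, beside 26.6% and 24.8% of all tested genes. Among the called genes Pdk1 alone differed by 1.5-fold or more, beside 5.8% of all tested genes. The median log2 fold change was 0.018 over the 9 genes and -0.0031 over all tested genes. In bulk RNA a lower level in every cell and fewer cells with the mRNA cannot be told apart.

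**Figure D1:**
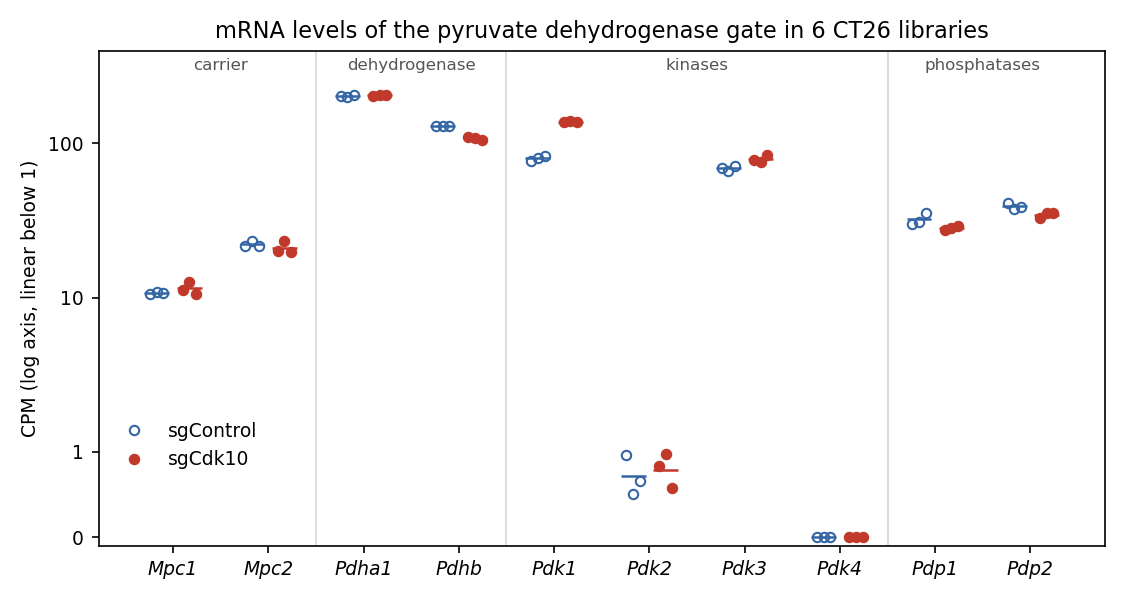
Level in CPM (y axis, logarithmic above 1 and linear below) of the 10 genes (x axis), with 1 point per library and a short line at the mean of 3 libraries; open blue points are sgControl and filled red points sgCdk10. Pdk1 moves from 77.2 to 83.3 CPM in sgControl to 137 to 141 in sgCdk10, Pdk2 lies below 1 CPM and Pdk4 at 0.

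Among the kinases Pdk1 had the largest change. PDK1 can phosphorylate every regulatory serine of PDHA1. The gene (ENSMUSG00000006494) spans 71873224 to 71903858 of chromosome 2 (GRCm38, plus strand) and has 13 exons once its transcripts are merged. Its level was 77.2, 80.9 and 83.3 CPM in sgControl and 137.5, 140.8 and 137.1 CPM in sgCdk10. Every sgCdk10 library was above every sgControl library, and the gap between the groups was far wider than the range within either. The mean rose from 80.5 ± 3.05 to 138.5 ± 2.00 CPM (SD, n = 3), a 1.72-fold rise, or 0.78 on the log2 scale (standard error 0.035; 95% interval 0.71 to 0.85; edgeR adjusted p = 6.4e-15). Only 2.02% of tested genes had a higher log2 fold change. Over 14 alternative settings the log2 fold change of Pdk1 lay between 0.75 and 0.80.

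Pdk3, an isoform with little sensitivity to inhibition by pyruvate, also rose, but by less. The gene (ENSMUSG00000035232) spans 93764607 to 93832201 of chromosome X (minus strand). Its level was 69.7, 66.5 and 71.8 CPM in sgControl and 77.6, 75.8 and 83.6 CPM in sgCdk10. The groups did not overlap, but the lowest sgCdk10 library was only a little above the highest sgControl library. The mean rose from 69.3 ± 2.64 to 79.0 ± 4.08 CPM (SD, n = 3), or by 0.19 on the log2 scale (standard error 0.043; edgeR adjusted p = 0.000899). Of the tested genes 21.9% had a higher log2 fold change, so a rise of this size was common in the comparison.

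Pdk2, in many tissues the most widely expressed isoform, was barely detected. Its counts were 17, 9 and 12 in the sgControl libraries and 15, 17 and 11 in the sgCdk10 libraries, and the groups overlapped. The log2 fold change was 0.14 with a 95% interval from -0.55 to 0.84 (edgeR adjusted p = 0.764), so a change of the size seen for Pdk3 was not detectable at this depth. Its sign turned without sgControl replicate 2 (-0.045) or sgCdk10 replicate 2 (-0.026). Pdk4 (ENSMUSG00000019577), the isoform induced by fasting, had 0 counts in all 6 libraries. At 3 counts as the floor, that allows up to 0.156 to 0.171 CPM in a library, a limit that covers counting error only. With both nearly silent, Pdk1 and Pdk3 held almost all kinase mRNA in these cells.

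The promoters of the 2 kinases that rose are shown for the core of the hypoxia response element, which HIF-1 is known to bind. They are the 250 bases before the RefSeq start of each gene on GRCm38.p6, written 5′ to 3′ on the gene's own strand. Capitals mark ACGTG or GCGTG on either strand, read as CACGT or CACGC on the other, and overlapping matches were counted once. Pdk1 lies at chr2:71872974-71873223 on the plus strand and Pdk3 at chrX:93832151-93832400 on the minus strand.
Pdk1: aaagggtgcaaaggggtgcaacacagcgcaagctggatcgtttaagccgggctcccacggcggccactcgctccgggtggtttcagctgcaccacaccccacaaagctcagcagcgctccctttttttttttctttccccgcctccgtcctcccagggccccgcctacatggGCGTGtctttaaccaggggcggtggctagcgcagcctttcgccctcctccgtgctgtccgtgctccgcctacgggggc
Pdk3: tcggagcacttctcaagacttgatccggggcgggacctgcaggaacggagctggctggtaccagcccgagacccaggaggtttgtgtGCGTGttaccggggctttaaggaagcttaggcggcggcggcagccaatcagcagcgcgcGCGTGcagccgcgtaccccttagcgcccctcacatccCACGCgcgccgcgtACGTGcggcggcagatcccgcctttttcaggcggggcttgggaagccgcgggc
The Pdk1 window held 1 match, 78 bases before the start. The second RefSeq start of Pdk1 held 0. The Pdk3 window held 4 matches, at 163, 104, 67 and 53 bases before the start. At least 1 match occurred in 38.6% of 32851 such windows and 3 or more in 4.65%. A match is a description of the letters and not a binding site.

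Pdk1 had a larger share of the kinase mRNA in every sgCdk10 library than in any sgControl library. Levels of different genes were compared as CPM per kilobase of merged exon. The summed kinases stood at 37.6 ± 1.21 CPM per kilobase in sgControl and 48.9 ± 1.35 in sgCdk10 (SD, n = 3). Of the difference of 11.3 CPM per kilobase, Pdk1 gave 7.46 and Pdk3 gave 3.78. Per kilobase Pdk3 stood higher in both groups, at 27.1 against 10.3 for Pdk1 in sgControl and 30.9 against 17.8 in sgCdk10. With the longest annotated transcript as the length, the values were 32.8 against 15.5 and 37.4 against 26.7. Not divided by length, Pdk1 stood higher, at 80.5 against 69.3 CPM in sgControl and 138.5 against 79.0 in sgCdk10. The order of these kinases and the share of each therefore depend on the length used. The share of Pdk1 in the summed kinases was 26.5, 28.5 and 27.5% in sgControl and 36.6, 37.7 and 34.9% in sgCdk10. The groups did not overlap, and the mean share differed by 8.93 percentage points (exact two-sided permutation test p = 0.1, the smallest that 3 against 3 libraries can give).

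Both phosphatase genes fell by about the same small amount. PDP1 is known as the calcium-stimulated form and PDP2 as the form that responds to insulin in adipose tissue. Pdp1 (chromosome 4, 11958184 to 11966452, minus strand) had 30.2, 30.8 and 35.5 CPM in sgControl and 27.3, 28.4 and 29.0 CPM in sgCdk10. sgControl replicate 3 was the highest library by a wide margin, and the other sgControl libraries were only slightly above the sgCdk10 libraries. Pdp1 fell by 0.19 on the log2 scale (standard error 0.061; edgeR adjusted p = 0.0145). Without sgControl replicate 3, the library with the Acta1 counts, it was -0.12 (adjusted p = 0.0945), without sgCdk10 replicate 1 it was -0.17 (adjusted p = 0.0841), and DESeq2 gave adjusted p = 0.0706. The fall of Pdp1 is therefore less certain than the others.

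Pdp2 (chromosome 8, 104591451 to 104599026, plus strand) had 41.2, 37.6 and 39.0 CPM in sgControl and 33.1, 35.4 and 35.3 CPM in sgCdk10. The groups did not overlap. Pdp2 fell by 0.18 on the log2 scale (standard error 0.052; edgeR adjusted p = 0.00639), and without sgCdk10 replicate 1 its value was -0.15 (adjusted p = 0.0509). Leaving out sgCdk10 replicate 1 thus ended the calls of both phosphatases and left Pdhb as the 1 gene of the 10 called lower. Of the tested genes 21.4% had a lower log2 fold change than Pdp1 and 22.4% a lower one than Pdp2.

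The ratio of kinase to phosphatase mRNA within a library was higher in every sgCdk10 library than in any sgControl library. Summed kinases were 2.68 ± 0.0387 times the summed phosphatases per kilobase in sgControl and 3.97 ± 0.122 times in sgCdk10 (SD, n = 3). On the log2 scale the ratio was 1.425, 1.444 and 1.403 in sgControl and 2.025, 1.938 and 1.998 in sgCdk10. This difference of 0.56 does not depend on how libraries are scaled to each other (exact two-sided permutation test p = 0.1). Summed kinases stood at 0.852 ± 0.0216 times the mean of Pdha1 and Pdhb in sgControl and at 1.17 ± 0.0402 times in sgCdk10. The groups did not overlap in this ratio (exact two-sided permutation test p = 0.1). The sizes of both ratios depend on the length used. With the longest annotated transcript, summed kinases and phosphatases stood at 48.6 and 14.55 CPM per kilobase in sgControl and 64.4 and 12.8 in sgCdk10. Pdha1 and Pdhb then stood at 71.6 and 54.8 in sgControl and 72.5 and 45.4 in sgCdk10. Each of 5 within-library values was compared by this exact permutation test, and each gave p = 0.1, also after Benjamini-Hochberg adjustment over the 5.

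**Figure D2:**
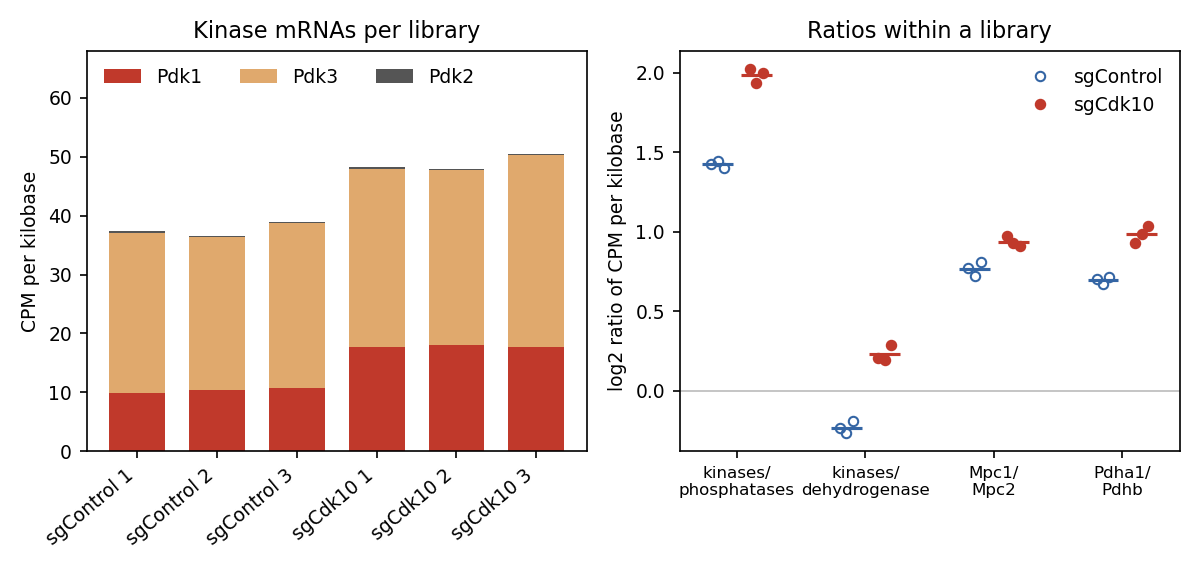
Left: stacked bars of CPM per kilobase (y axis) of Pdk1, Pdk3 and Pdk2 in each of the 6 libraries (x axis); Pdk4 is at 0 and Pdk2 a thin top layer. Right: log2 ratios of CPM per kilobase (y axis) for 4 pairs of genes or sums (x axis), 1 point per library with a line at the mean of 3; kinases over phosphatases lie at 1.403 to 1.444 in sgControl and 1.938 to 2.025 in sgCdk10.

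Of the 2 subunit genes of the dehydrogenase, Pdhb fell and Pdha1 was not called. Pdha1, the X-linked gene of the alpha subunit that the kinases phosphorylate, had 203.9, 201.5 and 206.4 CPM in sgControl and 204.5, 207.8 and 207.4 in sgCdk10. The groups overlapped, and the log2 fold change of 0.018 had a 95% interval from -0.041 to 0.078 (edgeR adjusted p = 0.64). Pdha1 exons overlap those of Map3k15 on the opposite strand over 603 bases, and Map3k15 had 6 to 16 counts. As the strand setting is not given, whether reads in the shared bases were counted for Pdha1 is not known. The pseudogene 4930519F09Rik, 90.1% identical to Pdha1 over 1118 bases, had at most 2 counts.

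Pdhb, the gene of the beta subunit, had the largest fall of the 10 genes. It spans 8165996 to 8173025 of chromosome 14 (minus strand). Its level was 129.6, 130.8 and 130.2 CPM in sgControl and 110.8, 108.5 and 104.7 in sgCdk10, with all sgCdk10 libraries well below the tight sgControl group. The mean fell from 130.2 ± 0.587 to 108.0 ± 3.06 CPM (SD, n = 3), which is 0.829-fold or -0.27 on the log2 scale (edgeR adjusted p = 3.7e-07). It was called lower in all 14 alternatives run, at -0.29 to -0.25. The log2 ratio of Pdha1 to Pdhb per kilobase was 0.70 ± 0.021 in sgControl and 0.98 ± 0.051 in sgCdk10, without overlap (SD, n = 3; exact two-sided permutation test p = 0.1).

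Neither gene of the pyruvate carrier was called. Mpc1 had 10.5, 10.9 and 10.7 CPM in sgControl and 11.2, 12.6 and 10.6 CPM in sgCdk10, and the groups overlapped. Its log2 fold change was 0.099 with a 95% interval from -0.082 to 0.28 (edgeR adjusted p = 0.388). Mpc2 had 21.7, 23.2 and 21.6 CPM in sgControl and 20.1, 23.4 and 19.9 CPM in sgCdk10, with a log2 fold change of -0.072 and an interval from -0.21 to 0.069 (edgeR adjusted p = 0.423). The interval of Mpc1 leaves room for a rise, and that of Mpc2 for a fall, as large as the changes of Pdk3 and the phosphatases.

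The count of Mpc1 is less certain than the others. Its processed pseudogene Mpc1-ps matched Mpc1 at 100% over 261 bases and had 153 to 185 counts, nearly as many as the 186 to 222 of Mpc1. The log2 ratio of Mpc1 to Mpc2 per kilobase differed by 0.17 between the groups without overlap (exact two-sided permutation test p = 0.1). With the counts of Mpc1-ps added to Mpc1, an alternative chosen after seeing the data, the difference was 0.0545, the groups overlapped and p was 0.3 by the same exact test. Exons of Mpc1 also overlap those of 4930506C21Rik on the opposite strand over 480 bases; that gene had 4 to 13 counts.

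**Figure D3:**
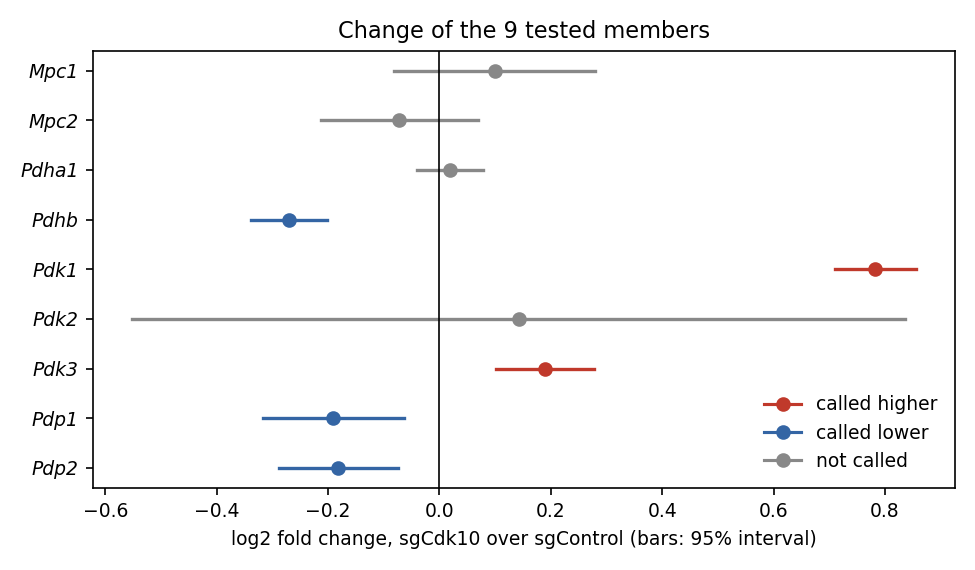
Log2 fold change of sgCdk10 over sgControl (x axis) for the 9 genes tested (y axis); points are edgeR estimates from 3 libraries per group and bars 95% intervals, red for called higher, blue for called lower and grey for not called. Pdk1 at 0.78 lies apart from the other called genes, which lie between -0.27 and 0.19, and Pdk2 has the widest interval.

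Per kilobase the order of levels in sgControl was Pdha1 (54.6), Pdhb (33.7), Pdk3 (27.1), Pdk1 (10.3), Pdp1 (7.14), Pdp2 (6.89), Mpc1 (5.14), Mpc2 (3.02), Pdk2 (0.224) and Pdk4 (0), all in CPM per kilobase of merged exon. Only Pdp1 and Pdp2 overlapped as neighbours in that order. In sgCdk10 Pdk3 (30.9) stood above Pdhb (28.0), and Pdp2 also overlapped Mpc1. With the longest annotated transcript as the length, Pdhb stayed above Pdk3 in sgCdk10 (45.4 against 37.4) and Mpc1 stood above both phosphatases, so those parts of the order depend on the length used.

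Of 10 tested partners of the complex 6 fell and 0 rose, beside 20.4% and 22.1% of all tested genes, with a median log2 fold change of -0.20 against -0.0031 overall. Dld, the dihydrolipoamide dehydrogenase that reoxidises lipoate, fell from 153 to 133 CPM (log2 fold change -0.21; edgeR adjusted p = 6.5e-06). Pdhx, which anchors that enzyme, fell by 0.20, Pdpr, the regulatory subunit of the phosphatase, by 0.22 and Lias, lipoate synthase, by 0.21 on the log2 scale. Mcat, of mitochondrial fatty acid synthesis that feeds lipoate, fell by 0.34 (edgeR adjusted p = 0.000187). Lipt2, which transfers the precursor of lipoate, fell by 0.33 (edgeR adjusted p = 0.0466). This call was lost in 10 of 14 alternatives, among them sgControl replicate 1 or 3 or sgCdk10 replicate 2 or 3 left out. Over all 14 alternatives the adjusted p of Lipt2 ran from 0.0253 to 0.2. Dlat, the acetyltransferase core of the complex, was not called at 0.056 on the log2 scale (edgeR adjusted p = 0.279), but was at 0.10 without sgControl replicate 3 (edgeR adjusted p = 0.0171). Lipt1, a lipoyl transferase, was not called at -0.023 on the log2 scale (edgeR adjusted p = 0.892).

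Of 8 tested genes of the oxoglutarate and branched-chain dehydrogenases and their regulators 3 fell and 1 rose, beside 20.4% and 22.1% of all tested genes, with a median log2 fold change of -0.052. Bckdk, the kinase that acts on the branched-chain complex as the PDK kinases act on pyruvate dehydrogenase, fell from 106 to 79.7 CPM (log2 fold change -0.41; edgeR adjusted p = 9.6e-10), opposite in direction to Pdk1. Its opposing phosphatase Ppm1k rose by 0.32 (edgeR adjusted p = 0.0229), a call lost with DESeq2 and without sgControl replicate 1 or 2 or sgCdk10 replicate 1 (adjusted p 0.0527 to 0.131). Ogdh fell by 0.13 and Dbt by 0.25 on the log2 scale; the call of Dbt was lost with DESeq2 and without sgControl replicate 1 or sgCdk10 replicate 2 or 3 (adjusted p 0.062 to 0.106).

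Of 11 tested genes of other sources and fates of pyruvate 3 rose and 2 fell, near the 22.1% and 20.4% of all tested genes, with a median log2 fold change of 0.0375. Slc16a3, the lactate exporter MCT4, rose from 70.0 to 108 CPM (log2 fold change 0.63; edgeR adjusted p = 3.4e-12), its chaperone Bsg by 0.31 and Ldha, which reduces pyruvate to lactate, by 0.11. Gpt2, the mitochondrial alanine transaminase, fell from 142 to 87.9 CPM (log2 fold change -0.69; edgeR adjusted p = 3.1e-14). Slc16a1, the monocarboxylate transporter MCT1, fell from 219.6 to 208.2 CPM (log2 fold change -0.077; edgeR adjusted p = 0.0386), a call lost in 7 of 14 alternatives, among them sgControl replicate 1 or any 1 sgCdk10 library left out. Ldhb and Slc16a7 had 0 counts in all 6 libraries.

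Of 15 tested genes of the TCA cycle 9 fell and 2 rose, beside 20.4% and 22.1% of all tested genes, with a median log2 fold change of -0.0785. Idh3b and Suclg2 each fell by 0.23, Sdhc by 0.16 and the citrate synthase gene Cs by 0.10. The number that fell ranged from 4 to 10 over the alternatives, with 4 without sgCdk10 replicate 2 and 5 with DESeq2 or without any 1 of sgControl replicates 1 and 2 and sgCdk10 replicates 1 and 3; the number that rose ranged from 0 to 2. Of 9 tested genes of citrate export and acetyl-CoA supply 2 fell and 2 rose, shares close to the 20.4% and 22.1% of all tested genes. Slc25a1, the mitochondrial citrate carrier, fell by 0.31 (edgeR adjusted p = 2.3e-08), while Acly, which splits citrate in the cytosol, rose by 0.089 and the carnitine acetyltransferase gene Crat by 0.13. Acss2, which makes acetyl-CoA from acetate, fell by 0.16 (edgeR adjusted p = 0.0294). The calls of Acly, Crat and Acss2 were lost in 1, 4 and 6 of 14 alternatives, each of them without sgCdk10 replicate 1 (adjusted p = 0.0508, 0.0784 and 0.059), that of Crat also without sgCdk10 replicate 2 (0.0736), and that of Acss2 also without any other library but sgControl replicate 1 (0.0545 to 0.129).

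Of 11 tested known regulators of the kinase genes 4 rose and 2 fell, beside 22.1% and 20.4% of all tested genes. Hif1a, the gene of the HIF-1 alpha subunit, which is mainly controlled as a protein, fell from 219 to 191 CPM (log2 fold change -0.20; edgeR adjusted p = 1.6e-05). Ppard and Foxo3, known activators of Pdk4, rose by 0.40 and 0.45 and E2f1 by 0.19. Of the others Esrra rose by 0.18 and Nr3c1, the gene of the glucocorticoid receptor, fell by 0.13. Foxo1, Ppargc1a, Arnt, Myc and Rxra were not called, and Ppara, Pparg and Epas1 were too low to test. Over the alternatives 3 to 4 genes of this list rose and 2 fell. All 10 tested HIF targets listed beside Pdk1 rose, beside 22.1% of all tested genes, with a median log2 fold change of 0.68; Egln3 and Adm were too low to test. Among them P4ha1 rose by 0.80, Bnip3 by 1.14, Ero1l by 0.67 and Ankrd37 by 2.69. The rise of hypoxia genes in these libraries was known when the list was written, so it is no independent evidence. Over the 6 libraries the genes most like Pdk1 in log2 CPM were Cd44, Cep170, Kdm3a, Eif1b and P4hb, with Pearson r of 0.9987 to 0.9997; these values mostly describe the gap between the 2 groups.

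**Figure D4:**
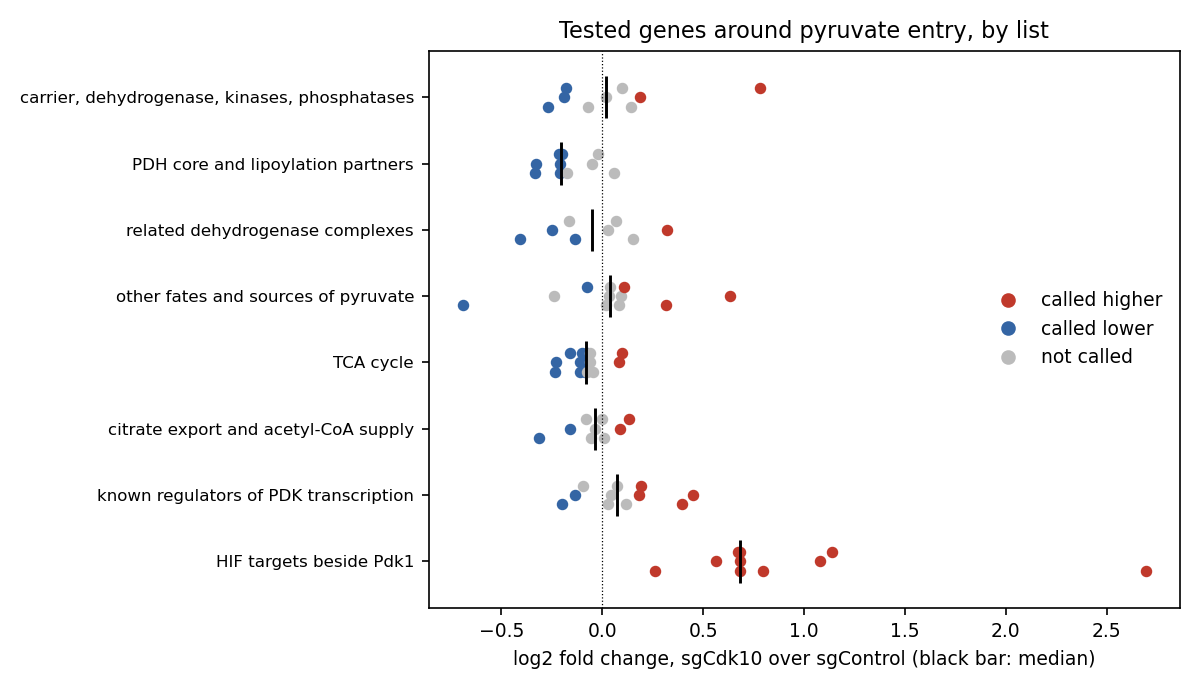
Log2 fold change of sgCdk10 over sgControl (x axis) for each tested gene of 8 lists (y axis), 1 point per gene, red for called higher, blue for called lower and grey for not called, with a black bar at the list's median. The HIF targets lie at 0.26 to 2.69, and the partners of the complex have a median of -0.20.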

How the data were processed

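The authors deposited raw counts per gene for 6 libraries, with Ensembl identifiers; the genome build mm10, the aligner HISAT2 (2.2.1), featureCounts (2.0.3) and DESeq2 (1.40.2) are listed in the submitters' processing notes. The sources used here do not give the strand setting, the treatment of reads that match several places or the annotation release. Libraries were grouped by title. Symbols, coordinates and lengths came from GENCODE M21 (GRCm38), which named 52081 identifiers, and promoters from RefSeq (9 of the 10 genes; Pdp1 had no entry).

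Genes were kept by filterByExpr (minimum count 10, minimum total 15), scaled by TMM and tested with edgeR 4.0.16 (R 4.3.3), by the robust quasi-likelihood test with group as the only term and Benjamini-Hochberg adjustment over all 13442 genes. Scripts were tested on simulated data. Ratios used the exact permutation test of scipy 1.17.1. Alternatives were DESeq2 1.42.0, limma-voom 3.58.1, other scaling, filters, dispersions, a replicate block, a GC and length correction, other lengths, and each library left out. Nothing in the labels ties the libraries to separate cultures, so each p-value is relative to a library-to-library spread that may be technical.

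The members and gene lists were chosen with earlier results of these data known. The text names all 10 genes, Cdk10, the listed partners of the complex (some of which are not reported here), up to 4 genes of smallest p in each other list, and the 5 genes with highest r to Pdk1 among those with a mean of at least 1 CPM. Markers and overlapping or copied genes are named as checks. Slc16a1, Slc16a7, Ldhb, Egln3, Adm and the remaining listed regulators of the kinase genes were named after their values were seen.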

Additional observations from a re-analysis of the deposited data

How the results depend on the processing

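The calls of Pdk1, Pdk3 and Pdhb, and their directions, held in all 14 alternatives run, and Pdha1, Mpc1 and Mpc2 were called in none of them. With 1 library left out the number of the 10 genes called lower was 1 to 3 and the number of genes called lower in the 8 pathway lists 17 to 25, against 3 and 26. The log2 fold change of Pdk2 ran from -0.045 to 0.41 with 1 library left out. DESeq2 gave Pdk2 no adjusted p, and its log2 fold change there is not reported here. The filter of at least 1 CPM in every library of a group removed Pdk2. The log2 fold change of Lipt1 ran from -0.082 to 0.024 with 1 library left out. It was 0.009 with the GC and length correction, a sign opposite to its -0.023, and the cause was not tested. With counts not divided by length the difference in log2 ratio was 0.72 for kinases over phosphatases and 0.62 for kinases over the dehydrogenase, since that gives the longer Pdk1 more weight, and adding Mpc1-ps gave 0.0545 for Mpc1 over Mpc2. The replicate block kept all 5 calls among the 10 genes (5481 genes called in all, against 5717), gave Pdk1 a log2 fold change of 0.78, and took away 2 calls among the genes named, those of Lipt2 (adjusted p = 0.0577) and Slc16a1. The correlation of deviations from the group mean between libraries of the same number was 0.038, -0.068 and -0.101, so the numbers were not taken as pairs; sign flips of 3 same-numbered differences gave p = 0.25 for each ratio in an exact test, the smallest possible. Depth limits the values of Pdk2 and Pdk4 most.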

Other observations

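The HIF core letters in the 250 bases before the start were counted for the 9 genes with a RefSeq promoter. Each held at least 1 match in its first window. These genes had 12 windows in all, and the second windows of Pdk1, Pdk2 and Mpc1 held 0 matches. The share of 38.6% with at least 1 match is over all 32851 windows, not first windows only. Pdk3, which rose, held the most, at 4 matches. Binding of HIF to these letters was not tested. Pdha1, which was not called, held 3 matches, and Pdhb, which fell, held 2. Pdp2, Mpc1, Mpc2, Pdk2 and the silent Pdk4 held 1 each in their first window, as many as Pdk1. The match of Pdk2 and that of Pdp2 were the palindrome CACGTG, 126 and 219 bases before the start.

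Of 8 tested targets of PPAR, FOXO and glucocorticoid signalling, which share regulators with Pdk4, 3 rose and 2 fell, beside 22.1% and 20.4% of all tested genes, with a median log2 fold change of -0.0023. Cpt1a, the gate of fatty acid entry into mitochondria, fell from 125 to 95.2 CPM (log2 fold change -0.39; edgeR adjusted p = 1.2e-09), and Tsc22d3, a glucocorticoid target, fell by 0.35. Plin2, a lipid droplet coat protein, rose by 0.25 and the clock gene Per1 by 0.37. Pdk4 stayed at 0 counts in the same libraries.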
